A study of Lachancea kluyveri with 16 samples.

Results

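The subject is the response of Lachancea kluyveri cells without SEF1 to a change of carbon source, glycerol against glucose, measured on 8 expression arrays of the 16 in the series. Lachancea kluyveri is a budding yeast whose lineage left that of baker's yeast before the genome duplication in the latter. Sef1 is a zinc cluster transcription factor that the study examined as a regulator of the tricarboxylic acid (TCA) cycle. The arrays were chosen by their labels alone, 4 for sef1Δ in YPGly and 4 for sef1Δ in YPD, each labelled as a biological repeat, and all 5316 genes with probes on the array were considered. Of these, 4255 reached the signal set for testing.

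All 8 mutant cultures were of strain SkSef1KA1, a MATa ura3 strain in which a KanMX6 cassette replaces SEF1 (SAKL0F12342g). It derives from the wild type JYL1897 and is a single strain, so effects of the deletion and of other changes in it cannot be told apart. YPD is rich medium (yeast extract and peptone) with 2% glucose, and YPGly is the same base with 4% glycerol. Cells of both groups came from an overnight YPD preculture at 28 °C, entered either medium at 0.2 OD600 per ml and were harvested after 5.5 h at 30 °C, so adaptation to glycerol and steady growth on it cannot be told apart. The study described slower growth of the mutant on glycerol, and a part played by growth rate was not tested. The 8 wild-type arrays (4 in each medium, same handling) serve below for comparison of the response only.

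Glucose is fermented by yeast through glycolysis to ethanol, and while it is present genes for other carbon sources are held down. Glycerol enters metabolism through glycerol kinase and a mitochondrial dehydrogenase and is used by respiration, and sugar phosphates must then be made by gluconeogenesis. Roles given below are those of the baker's yeast orthologs after which the genes are named, and genes that share a symbol are separate copies told apart by their identifiers. Levels are log2 signals relative to the 75th percentile of the gene probes on the same array, so 0 is the level of that percentile. A change is the mean in YPGly minus the mean in YPD with its standard error (SE), and a gene is called at 1.5-fold or more and an adjusted p of at most 0.05 by limma over all genes tested.

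SEF1 was read at -8.15 ± 1.60 (SD, n = 4) in sef1Δ in YPGly against -1.56 ± 0.12 (SD, n = 4) in WT, and at -8.86 ± 0.64 (SD, n = 4) against -1.93 ± 0.50 (SD, n = 4) in YPD. In each medium the strains did not overlap (exact two-sided permutation p 0.0286, the smallest that 4 against 4 arrays allow), and in YPD sef1Δ lay at least 28.9-fold below WT. Its signal was well above background on 1 of the 8 mutant arrays, replicate 3 in YPGly at -5.90, where its other probe was not. Signals of mutant replicates correlated across genes at 0.961 to 0.983 in YPD. In YPGly, replicate 2 stood apart, at 0.915 to 0.943 with the other replicates, which correlated at 0.978 to 0.993 with each other. The 2 slides held replicates 1 and 2, or 3 and 4, of every group, and the position on a slide cannot be told apart from the group. Every called gene named below kept its direction within each slide.

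The response was broad. In sef1Δ 770 genes were called higher in YPGly (18.1% of those tested) and 953 lower (22.4%), which is 40.5% in either direction. Groups did not overlap for 785 higher (18.4%) and 1000 lower (23.5%) genes, or 42% in either direction. Rises reached further than falls: 57 genes rose at least 16-fold and 6 fell at least 16-fold. Of the 57, 44 have a baker's yeast symbol. The groups did not overlap for 56, which their selection by size on the same arrays makes likely. In WT 56 of them were also called higher, against 17.5% of all genes tested. On these 57 genes replicate 4 was the highest of the YPD arrays for 36, and replicate 2 the lowest of the YPGly arrays for 31. The median change over all genes was -0.11. Scaled on the arrays' spike-in controls it was 0.18, and the share of higher genes among those called went from 44.7% to 68.2%. A small change is thus relative to the bulk of the transcripts. The spike-in scale used 6 of 10 control probes and is itself uncertain. Their mean log2 signal relative to the 75th percentile ran from -0.20 to 0.54 over the YPD arrays and from -0.43 to -0.11 over the YPGly arrays. Each list below is described by its counts and median, to be read against 18.1% higher, 22.4% lower and the median of -0.11 over all genes, and the counts without replicate 2 in YPGly follow where they differ.

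**Figure D1:**
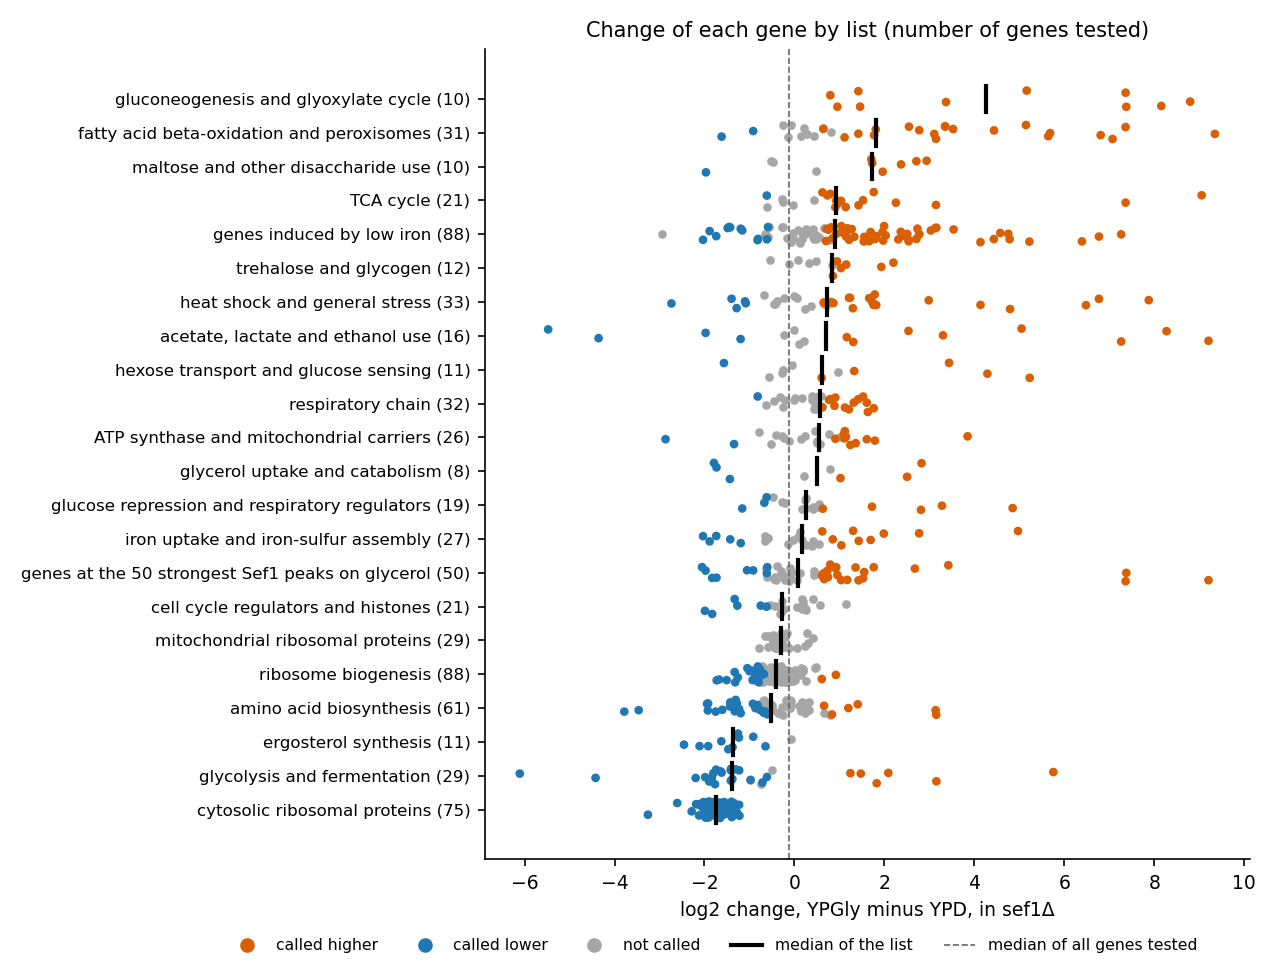
Log2 change in sef1Δ (YPGly minus YPD) of each gene tested, by list, with the number tested in parentheses. Points are genes, bars the median of each list and the dashed line the median of all genes (-0.11); all 75 cytosolic ribosomal protein genes lie to the left of 0 and all 10 gluconeogenesis and glyoxylate genes to the right.

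The genes by which cells make sugar phosphates from smaller carbon units rose together in cells without Sef1. All 10 genes of gluconeogenesis, the glyoxylate cycle and the steps tied to them were called higher, with a median change of 4.27 against -0.11 for all genes, and 8 of the 10 had groups that did not overlap. The key step is that of PCK1 (SAKL0E15048g), phosphoenolpyruvate carboxykinase, read at -4.08, -4.15, -4.14 and -3.22 on the 4 YPD arrays and at 4.90, 4.86, 5.05 and 4.79 on the 4 YPGly arrays. YPD replicate 4 was the highest of its group, and the media were far apart. The change was 8.80 (SE 0.22, adjusted p 4.90e-09), or 444-fold. ICL1 (SAKL0F08756g), isocitrate lyase of the glyoxylate cycle, went from -4.70, -4.79, -4.57 and -3.74 to 3.89, 3.17, 4.15 and 3.60, a change of 8.15 (SE 0.28, adjusted p 3.51e-08). Its partner MLS1 (SAKL0E10846g), malate synthase, went from -0.18, 0.24, -0.26 and 0.07 to 3.41, 3.53, 3.43 and 2.97, a change of 3.37 (SE 0.19, adjusted p 7.84e-07). The same high replicate 4 was seen in YPD for ICL1 but not for MLS1.

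SFC1 (SAKL0F14234g), the mitochondrial carrier that exchanges succinate for fumarate, rose by 7.38 (SE 0.45, adjusted p 1.58e-06), and its probe was well above background on 2 of the 4 YPD arrays. IDP2/IDP3 (SAKL0D08426g), an NADP-dependent isocitrate dehydrogenase, was read at -4.67, -4.27, -4.12 and -1.95 in YPD and 3.49, 3.47, 3.75 and 3.71 in YPGly. Replicate 4 in YPD lay more than 2 log2 units above its group there, and the change was 7.36 (SE 0.49, adjusted p 2.86e-06). FBP1 (SAKL0H03740g), fructose-1,6-bisphosphatase, rose by 5.16 (SE 0.30, adjusted p 1.17e-06). PYC1 (SAKL0A07128g), pyruvate carboxylase, rose by 1.42 (SE 0.18, adjusted p 2.0e-04), from 2.39, 2.44, 2.15 and 2.93 to 3.97, 3.88, 3.93 and 3.81, with the 4 YPGly arrays nearly equal. Smaller changes were those of VID24 (SAKL0B07634g), a receptor of the complex that marks gluconeogenic enzymes for breakdown (1.46, SE 0.30, adjusted p 0.00303), and MDH2 (SAKL0C12760g), cytosolic malate dehydrogenase (0.80, SE 0.21, adjusted p 0.0123). CIT1/CIT2 (SAKL0D09152g), citrate synthase, was read at 2.08, 3.11, 1.58 and 3.01 in YPD and 3.56, 2.98, 3.57 and 3.49 in YPGly. Its groups overlapped, and its change of 0.95 (SE 0.33, adjusted p 0.0401) was no longer called without any 1 of YPD replicates 1 and 3 or YPGly replicates 1, 3 and 4 (0.66 to 0.92).

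**Figure D2:**
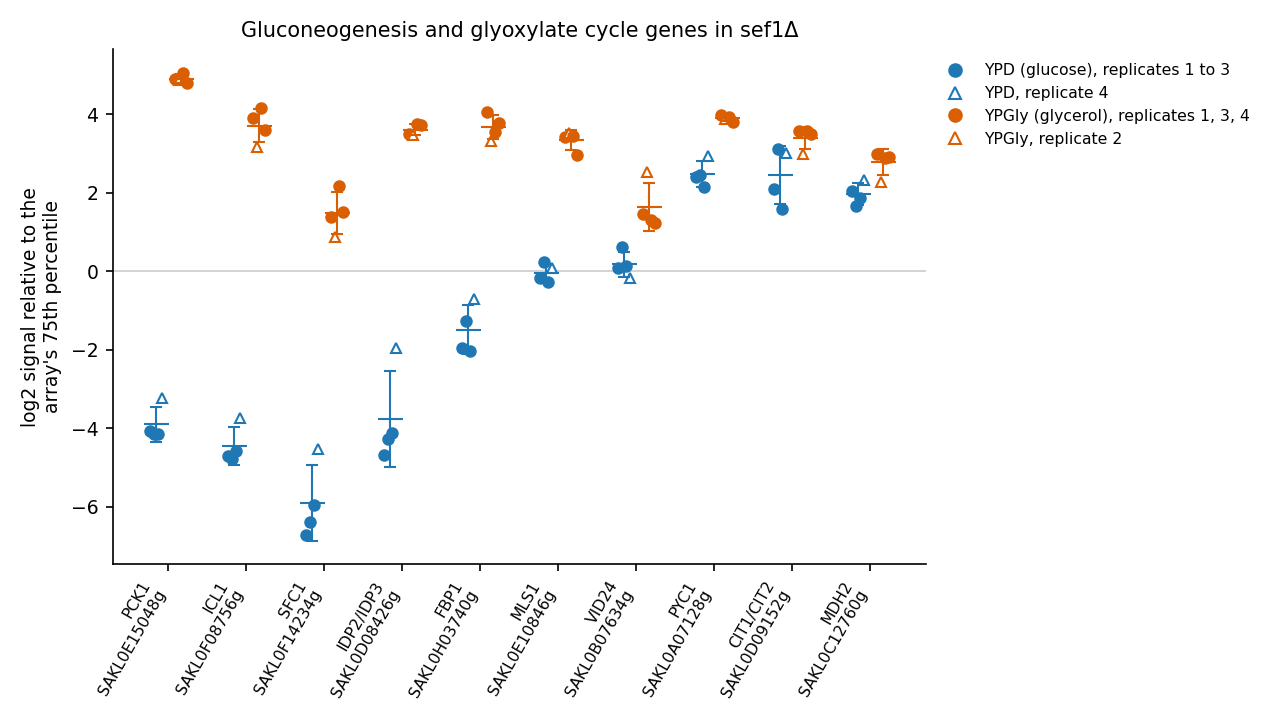
Log2 signal relative to the 75th percentile of each array for the 10 genes of gluconeogenesis and the glyoxylate cycle in sef1Δ. Points are arrays (triangles mark YPD replicate 4 and YPGly replicate 2), bars mean ± SD of 4 arrays; the media do not overlap for 8 genes and overlap for MDH2 and CIT1/CIT2.

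Glycerol genes split by the direction of the reaction. Of 8 tested, 3 were called higher and 3 lower, and these counts were the same without YPGly replicate 2. The higher ones use glycerol. GUT1 (SAKL0H25938g), glycerol kinase, was read at -2.5, -2.01, -2.67 and -0.72 in YPD and 1.08, 0.25, 1.18 and 0.89 in YPGly, a change of 2.83 (SE 0.40, adjusted p 3.42e-04). GUT2 (SAKL0E15114g), the mitochondrial glycerol-3-phosphate dehydrogenase, went from 0.44, 0.82, 1.01 and 2.54 to 3.91, 3.36, 3.94 and 3.62, a change of 2.5 (SE 0.39, adjusted p 6.57e-04). In both, YPD replicate 4 was the array nearest to YPGly, but it still lay below all 4 YPGly arrays. DAK1 (SAKL0G17578g), dihydroxyacetone kinase, rose by 1.02 (SE 0.17, adjusted p 8.00e-04).

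The lower ones make or release glycerol. GPD1 (SAKL0C07502g), the glycerol-3-phosphate dehydrogenase of glycerol synthesis, went from 3.93, 4.41, 3.92 and 4.27 to 2.37, 2.35, 2.54 and 2.33, a change of -1.73 (SE 0.17, adjusted p 3.36e-05). HOR2 (SAKL0F08690g), glycerol-3-phosphatase, changed by -1.79 (SE 0.42, adjusted p 0.00659), with YPD replicate 4 (3.12) below YPGly replicate 2 (3.34). FPS1 (SAKL0H25916g), the channel through which glycerol leaves the cell, fell from -0.36, -0.34, -0.01 and 0.29 to -1.76, -1.32, -1.54 and -1.54, a change of -1.43 (SE 0.19, adjusted p 2.26e-04). STL1 (SAKL0G18810g), the glycerol-proton symporter, was at 0.04, 1.66, 0.97 and -0.09 in YPD and 1.42, 0.80, 1.84 and 1.66 in YPGly, and its change of 0.79 (SE 0.39, adjusted p 0.121) was not called. It was 1.12 and called without YPD replicate 2. GCY1 (SAKL0G02530g), a glycerol dehydrogenase, was at 0.21 (adjusted p 0.383).

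Uptake of acetate and lactate gave some of the largest rises. In the list of acetate, lactate and ethanol use, 8 of 16 genes were called higher and 4 lower, with a median of 0.69. ADY2 (SAKL0D09328g), the acetate transporter, was read at -5.11, -4.38, -5.07 and -4.01 in YPD and at 4.75, 4.68, 3.99 and 4.82 in YPGly, a change of 9.20 (SE 0.29, adjusted p 2.15e-08) or 590-fold. Of 2 copies of the lactate and pyruvate permease JEN1, JEN1 (SAKL0F02178g) rose by 8.27 (SE 0.30, adjusted p 4.64e-08), with 3 of the 4 YPD arrays well above background, and JEN1 (SAKL0G14938g) by 5.05 (SE 0.61, adjusted p 1.28e-04). The latter stood at -1.32, -0.96, -1.86 and 1.54 in YPD, where replicate 4 lay far above the rest, and at 4.52, 4.04, 4.37 and 4.66 in YPGly. DLD1 (SAKL0F11704g), mitochondrial D-lactate dehydrogenase, rose by 2.53 (SE 0.28, adjusted p 8.19e-05). The pyruvate dehydrogenase subunits PDA1 (SAKL0H17468g) and PDB1 (SAKL0A07018g) were at 0.09 and 0.22 (adjusted p 0.705 and 0.296) and were not called.

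Copies of 1 enzyme moved in opposite directions along the path from pyruvate to acetyl-CoA. Of 2 genes with the symbol PDC1, pyruvate decarboxylase, PDC1 (SAKL0F04334g) went from -0.15, 1.28, 0.36 and 1.47 in YPD to 4.28, 3.79, 3.38 and 4.14 in YPGly, a change of 3.15 (SE 0.36, adjusted p 9.71e-05). PDC1 (SAKL0G14894g) went the other way, from 7.26, 7.04, 6.46 and 6.16 to 5.16, 6.02, 4.02 and 4.66, a change of -1.77 (SE 0.40, adjusted p 0.00561). Both had groups that did not overlap. Among the aldehyde dehydrogenases, ALD4 (SAKL0D14806g), a mitochondrial form, rose from 1.34, 1.24, 1.03 and 1.81 to 5.06, 3.46, 5.03 and 5.08 (3.30, SE 0.36, adjusted p 7.52e-05). ALD6 (SAKL0H10252g), the main cytosolic form, fell from 3.53, 2.82, 2.61 and 1.78 to -3.08, -2.13, -2.47 and -3.47, a change of -5.48 (SE 0.39, adjusted p 4.39e-06). ALD5 (SAKL0F09108g), another mitochondrial form, fell by 4.35 (SE 0.47, adjusted p 6.57e-05). The 2 acetyl-CoA synthetases parted likewise. ACS1 (SAKL0D14608g) went from -3.47, -3.46, -3.59 and -1.59 to 4.81, 3.26, 4.28 and 4.59, a change of 7.26 (SE 0.47, adjusted p 2.37e-06). ACS2 (SAKL0H14542g) went from 3.13, 2.90, 2.62 and 2.78 to 1.61, 1.82, 1.71 and 1.49, a change of -1.20 (SE 0.16, adjusted p 2.86e-04).

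Alcohol dehydrogenases, which interconvert acetaldehyde and ethanol, also differed by copy. ADH5 (SAKL0H00374g) rose from -2.61, -2.76, -2.66 and -1.66 to 3.71, 3.07, 3.03 and 3.50, a change of 5.76 (SE 0.27, adjusted p 2.27e-07). ADH4 (SAKL0C13926g) fell from 5.85, 6.26, 5.09 and 5.56 to 1.11, 3.94, -1.25 and 1.27, a change of -4.42 (SE 0.85, adjusted p 0.00225), with wide spread in YPGly, where replicate 2 was highest and replicate 3 lowest. ADH2 (SAKL0F06270g) fell by 1.98 (SE 0.25, adjusted p 1.85e-04), and its probe shares sequence with another gene (SAKL0C10164g) by its name. ADH3 (SAKL0E02838g), the largest fall of any gene tested, went from 2.49, 2.60, 1.71 and 2.57 to -3.72, -3.37, -4.15 and -3.83, a change of -6.11 (SE 0.24, adjusted p 8.50e-08) on the probe that the study's notes prefer. Its other probe went from 2.87, 2.78, 2.27 and 2.90 to 0.13, 0.52, 0.21 and 0.64, a change of -2.33, so the direction was shared and the size was not. ADH3 (SAKL0B08184g) changed by -0.71 (SE 0.25, adjusted p 0.0396), and this call was lost without any 1 of 6 arrays (-0.79 to -0.55). Its groups overlapped, and its change was -0.12 on the other probe and -0.41 with no call under spike-in scaling.

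**Figure D3:**
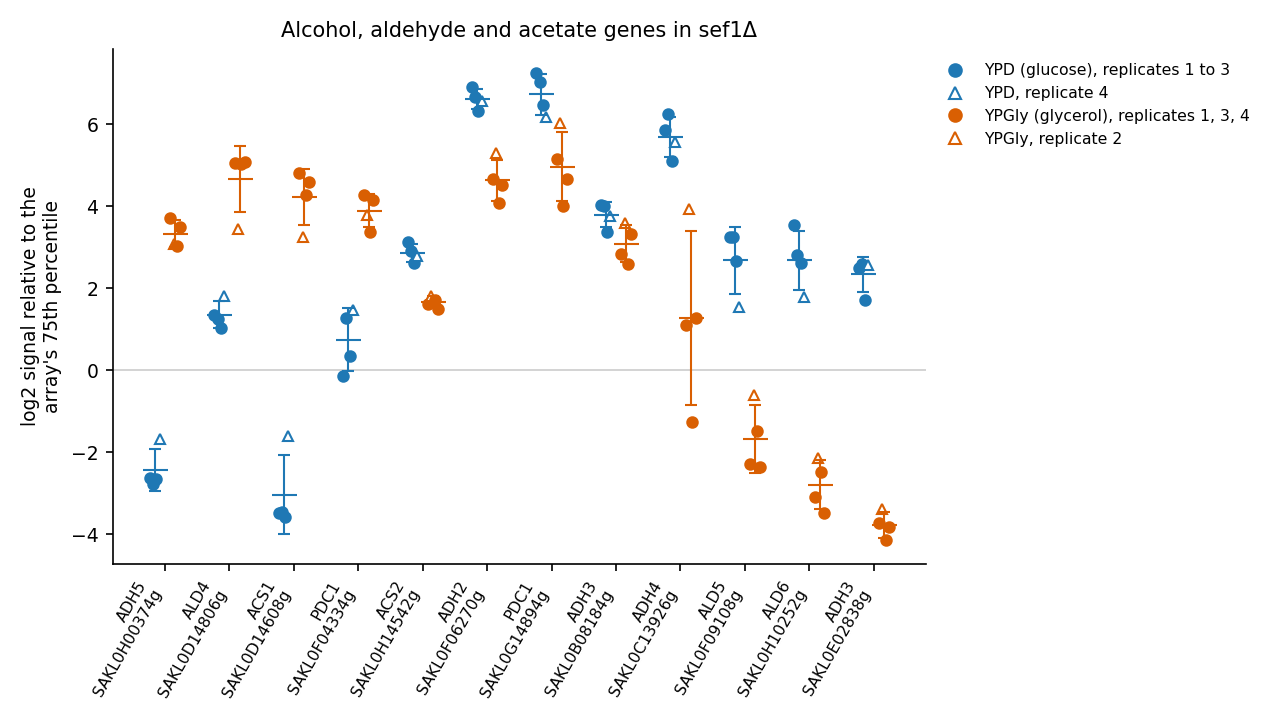
Log2 signal relative to the 75th percentile of each array for copies of pyruvate decarboxylase (PDC1), alcohol dehydrogenase (ADH), aldehyde dehydrogenase (ALD) and acetyl-CoA synthetase (ACS) genes in sef1Δ. Points are arrays (triangles mark YPD replicate 4 and YPGly replicate 2), bars mean ± SD of 4 arrays. ADH5, ALD4, ACS1 and PDC1 (SAKL0F04334g) lie higher in YPGly and the others lower, with overlap for ADH3 (SAKL0B08184g).

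Genes of the methylcitrate cycle, which breaks down propionyl-CoA, rose, CIT3 and PDH1 from near background. CIT3 (SAKL0B02926g), methylcitrate synthase, was read at -6.54, -8.10, -7.85 and -6.91 in YPD and 2.09, 1.60, 1.01 and 2.11 in YPGly, a change of 9.05 (SE 0.37, adjusted p 9.54e-08). PDH1 (SAKL0B02948g), methylcitrate dehydratase, rose by 9.71 (SE 0.55, adjusted p 9.40e-07). Each probe was well above background on 2 of the 4 YPD arrays and on all 4 YPGly arrays. ICL2 (SAKL0B03212g), methylisocitrate lyase, which was chosen after its values were seen, went from -2.52, -2.13, -2.67 and -2.05 to 1.13, 1.22, 1.02 and 0.95, a change of 3.42 (SE 0.18, adjusted p 6.84e-07).

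Genes for breaking down fatty acids in peroxisomes rose strongly. Of 31 tested, 20 were called higher and 2 lower, with a median of 1.81. SPS19 (SAKL0H09460g), 2,4-dienoyl-CoA reductase, was at -8.79, -8.23, -8.41 and -6.78 in YPD, well above background on 1 array, and at 1.56, 0.51, 1.43 and 1.67 in YPGly, a change of 9.35 (SE 0.42, adjusted p 1.53e-07). PXA1 (SAKL0H06908g), a subunit of the transporter that brings fatty acids into peroxisomes, rose by 7.07 (SE 0.46, adjusted p 2.31e-06), with 3 of the 4 YPD arrays well above background. POT1 (SAKL0E15246g), the thiolase of beta-oxidation, went from -5.39, -3.18, -5.02 and -1.63 to 3.15, 2.80, 2.84 and 3.22. Its YPD arrays spanned more than 3 log2 units, replicate 4 being the highest, and the change was 6.81 (SE 0.69, adjusted p 4.96e-05). MDH3 (SAKL0E04928g), peroxisomal malate dehydrogenase, rose by 3.15 (SE 0.25, adjusted p 8.49e-06), and CRC1 (SAKL0E10186g), the mitochondrial carnitine carrier, by 3.85 (SE 0.37, adjusted p 3.56e-05). The 2 lower genes were NPY1 (SAKL0A04422g), a peroxisomal NADH diphosphatase (-1.62, SE 0.23, adjusted p 3.20e-04), and a second SPS19 copy, SPS19 (SAKL0D11484g) (-0.92, SE 0.21, adjusted p 0.00533). The latter was -0.62 with no call under spike-in scaling.

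Respiratory genes rose less and less evenly. Of the 21 TCA cycle genes 15 were called higher and 1 lower, with a median of 0.93, and without YPGly replicate 2 the counts were 14 and 0. No gene was called lower without YPD replicate 2 or 4 or YPGly replicate 1 either, nor under spike-in scaling. The list also holds CIT3, IDP2/IDP3 and MDH3, which act outside the cycle proper. LSC2 (SAKL0H02464g), a subunit of succinyl-CoA ligase, went from 0.78, 1.44, 0.94 and 2.13 to 3.43, 3.81, 3.60 and 3.47, a change of 2.25 (SE 0.28, adjusted p 1.47e-04). Succinate dehydrogenase subunits SDH2 (SAKL0H25850g) and SDH4 (SAKL0H14146g) rose by 1.76 (SE 0.22, adjusted p 1.5e-04) and 1.53 (SE 0.30, adjusted p 0.0025), and ACO1 (SAKL0H24046g), aconitase, by 1.42 (SE 0.25, adjusted p 0.0013). The mitochondrial isocitrate dehydrogenase subunits were at -0.62 (adjusted p 0.227) for IDH1 (SAKL0E07876g) and -0.62 (adjusted p 0.0165) for IDH2 (SAKL0G03520g). The call of IDH2 was lost without YPD replicate 2 or 4 or YPGly replicate 1 or 2 (-0.58 to -0.54). MDH1 (SAKL0G19140g), mitochondrial malate dehydrogenase, was at -0.28 (adjusted p 0.407).

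In the respiratory chain 14 of 32 genes were called higher and 1 lower, with a median of 0.57 (16 and 2 without YPGly replicate 2). RIP1 (SAKL0D11242g), the Rieske protein of complex III, went from 0.91, 2.30, 2.14 and 1.06 to 2.95, 3.52, 3.20 and 3.17, a change of 1.61 (SE 0.32, adjusted p 0.00269). QCR6 (SAKL0H25982g), another complex III subunit, was read at -0.75, -0.33, 0.37 and -0.38 in YPD and 1.65, 0.08, 1.94 and 1.77 in YPGly, with YPGly replicate 2 far below its group and within the range of YPD. Its change was 1.63 (SE 0.40, adjusted p 0.00814). The lower gene was NDE2 (SAKL0D09658g), an external NADH dehydrogenase (-0.82, SE 0.19, adjusted p 0.00567), which was -0.52 with no call under spike-in scaling.

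Among ATP synthase and mitochondrial carrier genes 10 of 26 were called higher and 2 lower, with a median of 0.54 (11 and 3 without YPGly replicate 2, and 4 lower without YPD replicate 4). INH1/STF1 (SAKL0F09988g), an inhibitor of ATP hydrolysis by the synthase, rose by 1.79 (SE 0.17, adjusted p 3.37e-05), and PET9 (SAKL0B06754g), the ADP/ATP carrier, by 1.61 (SE 0.26, adjusted p 7.96e-04). Both lower genes carry the symbol YMC2, a mitochondrial carrier. YMC2 (SAKL0A10670g) fell from 0.33, 0.16, 0.07 and -0.63 to -3.14, -2.24, -2.81 and -3.33, a change of -2.87 (SE 0.28, adjusted p 3.82e-05), and YMC2 (SAKL0A00132g) changed by -1.34 (SE 0.29, adjusted p 0.00415). Mitochondrial ribosomal protein genes did not share the rise: of 29, 0 were called in either direction by limma, with a median of -0.31 and changes from -0.79 to 0.41. Groups did not overlap for 2 of the 29. Without YPD replicate 4, 5 were called lower, and without YPGly replicate 3, 3 were.

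Glycolysis and fermentation were mostly lower in YPGly. Of 29 genes 20 were called lower and 6 higher, with a median of -1.38 (22 and 5 without YPGly replicate 2). GPM2 (SAKL0C07590g), a phosphoglycerate mutase homolog, went from 1.23, 0.76, 0.93 and 1.41 to -0.86, -0.88, -1.48 and -1.24, a change of -2.20 (SE 0.21, adjusted p 3.24e-05). ENO1 (SAKL0H02024g), enolase, was read at 7.75, 7.77, 6.83 and 6.77 in YPD and 5.78, 6.93, 5.35 and 5.54 in YPGly. YPGly replicate 2 lay inside the YPD range, and the change of -1.38 (SE 0.37, adjusted p 0.0129) shrank to -0.53 and lost its call under quantile normalization. Glyceraldehyde-3-phosphate dehydrogenase TDH3 (SAKL0C10186g) behaved alike (-1.41, SE 0.39, adjusted p 0.0145, and -0.57 with no call under quantile normalization).

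The 6 higher genes included ADH5 and PDC1 (SAKL0F04334g), described above. TYE7 (SAKL0B10868g), a transcription factor of glycolytic genes, rose by 1.47 (SE 0.29, adjusted p 0.00243). A second copy, TDH3 (SAKL0H24926g), was higher in YPGly, but its probes differed in size. The main probe went from 1.27, 1.19, 0.44 and 0.73 to 2.94, 1.81, 3.06 and 3.12, a change of 1.83 (SE 0.31, adjusted p 0.00108). The other probe went from -4.70, -4.32, -4.27 and -4.09 to 3.14, 0.83, 3.36 and 3.42, a change of 7.04. On both probes YPGly replicate 2 was the lowest of its group and still above all YPD arrays.

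Glucose sensing and hexose transport gave 5 higher and 1 lower of 11 genes, with a median of 0.60 (5 and 3 without YPGly replicate 2). The glucose sensor RGT2 has 2 copies here, and both rose. RGT2 (SAKL0D10450g) went from -3.25, -1.98, -3.51 and 1.61 to 3.88, 3.79, 2.71 and 3.41, with YPD replicate 4 several log2 units above its group, a change of 5.23 (SE 0.94, adjusted p 0.00153). RGT2 (SAKL0B00264g) rose by 4.29 (SE 0.66, adjusted p 5.86e-04), with 1 of the 4 YPD arrays well above background. HXT1 (SAKL0D14960g), a hexose transporter, went from -5.01, -5.28, -5.33 and -4.71 to -1.13, -2.73, -1.81 and -0.90, a change of 3.44 (SE 0.36, adjusted p 5.98e-05). RGT1 (SAKL0A09856g), the repressor of hexose transporter genes, rose by 1.33 (SE 0.37, adjusted p 0.0149). The lower gene was the transporter HXT8 (SAKL0C00154g) (-1.57, SE 0.24, adjusted p 5.23e-04).

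Genes for maltose and related disaccharides rose as well, with 6 of 10 called higher and 1 lower and a median of 1.72. MAL11 (SAKL0A05676g), an alpha-glucoside permease, was at -5.99, -6.87, -6.37 and -5.41 in YPD, well above background on 3 arrays, and at -2.47, -4.47, -5.02 and -0.92 in YPGly. Its YPGly arrays spanned about 4 log2 units without reaching those in YPD, and the change was 2.94 (SE 0.78, adjusted p 0.0118). Of the isomaltase genes, IMA1 (SAKL0A05654g) rose by 1.73 (SE 0.26, adjusted p 4.86e-04), IMA1 (SAKL0A05698g) by 1.96 (SE 0.35, adjusted p 0.00135), IMA1 (SAKL0C02112g) by 2.37 (SE 0.59, adjusted p 0.00889) and IMA5 (SAKL0A00154g) by 2.71 (SE 0.63, adjusted p 0.0063). IMA5 (SAKL0C00176g) rose by 1.71 (SE 0.50, adjusted p 0.0184), a call lost without YPD replicate 1, 2 or 3 or YPGly replicate 1 (1.41 to 1.63). By their names, the probes of IMA1 (SAKL0A05654g) and IMA1 (SAKL0A05698g), and those of IMA1 (SAKL0C02112g) and IMA5 (SAKL0C00176g), share sequence, so their values may not be separate. SUC2 (SAKL0D11946g), invertase, fell from 6.56, 6.75, 6.01 and 6.32 to 4.04, 5.69, 4.04 and 4.00, a change of -1.97 (SE 0.37, adjusted p 0.00196), with YPGly replicate 2 well above the other 3.

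Cytosolic ribosomal protein genes fell as a block. All 75 tested were called lower, with groups that did not overlap for any of them, a median of -1.74 and changes from -3.26 to -1.22. All 75 were also called lower in each fit without 1 mutant array and under spike-in scaling, where the median was -1.44. The largest fall was that of RPS22A (SAKL0C04488g), from 3.87, 3.10, 3.73 and 3.02 in YPD to 0.46, -0.97, 0.90 and 0.30 in YPGly, a change of -3.26 (SE 0.38, adjusted p 1.01e-04). YPGly replicate 2 was the lowest array. RPS14A (SAKL0C04466g) fell from 5.12, 4.28, 4.69 and 4.00 to 2.31, 1.80, 2.53 and 2.31, a change of -2.28 (SE 0.26, adjusted p 9.32e-05). RPL38 (SAKL0H22924g) changed by -2.61 (SE 0.22, adjusted p 2.81e-05) on 7 arrays, since its spot on YPGly replicate 3 was left out as non-uniform. The smallest fall was that of RPL7A (SAKL0A04686g) (-1.22, SE 0.20, adjusted p 9.50e-04).

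Of 88 ribosome biogenesis genes tested, 19 were called lower and 2 higher, with a median of -0.41, so the share called lower (21.6%) was near that of all genes (22.4%). The lower count was 20 without YPGly replicate 2, 11 without YPD replicate 1, 12 without YPD replicate 3, 37 without YPD replicate 4 and 6 under spike-in scaling, and neither higher gene was called without YPD replicate 2 or YPGly replicate 1. NOP56 (SAKL0F11462g), a core protein of the particles that methylate ribosomal RNA, went from 3.05, 2.38, 2.85 and 2.54 to 1.17, 0.46, 1.23 and 1.04, a change of -1.73 (SE 0.22, adjusted p 1.91e-04). GAR1 (SAKL0G07920g), of the pseudouridylation particles, changed by -1.68 (SE 0.27, adjusted p 7.19e-04).

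In amino acid biosynthesis 22 of 61 genes (36.1%, against 22.4% of all genes) were called lower and 6 higher, with a median of -0.53 (30 and 5 without YPGly replicate 2). CYS3 (SAKL0B09614g), cystathionine gamma-lyase, went from 1.77, 1.47, 1.48 and 0.98 to -2.86, -1.64, -1.93 and -3.01, a change of -3.78 (SE 0.32, adjusted p 1.46e-05). Glutamate metabolism turned over by enzyme. GDH1 (SAKL0D14982g), the NADPH-dependent dehydrogenase that makes glutamate, fell from 2.71, 2.08, 2.57 and 2.44 to -0.81, -1.15, -0.89 and -1.19, a change of -3.46 (SE 0.18, adjusted p 6.82e-07). GDH2 (SAKL0E13024g), the NAD-dependent dehydrogenase that degrades it, rose from -0.64, 0.32, -0.82 and 0.61 to 3.23, 2.57, 2.95 and 3.28, a change of 3.14 (SE 0.33, adjusted p 5.78e-05). ASN1/ASN2 (SAKL0F02970g), asparagine synthetase, changed by -1.94 (SE 0.22, adjusted p 9.63e-05). LEU9 (SAKL0F05170g), an isopropylmalate synthase of leucine synthesis, went from -3.01, -1.48, -2.39 and -1.90 to 0.95, 1.74, 0.21 and 0.92, a change of 3.15 (SE 0.37, adjusted p 1.18e-04), and LYS21 (SAKL0H09746g), homocitrate synthase of lysine synthesis, rose by 1.41 (SE 0.36, adjusted p 0.0106).

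Ergosterol synthesis fell in 10 of 11 genes, with a median of -1.38. The fall covered early and late steps: HMG1 (SAKL0G17886g), HMG-CoA reductase, changed by -1.47 (SE 0.19, adjusted p 2.27e-04), MVD1 (SAKL0A00748g), of the mevalonate pathway, by -2.11 (SE 0.21, adjusted p 4.44e-05), and ERG11 (SAKL0G06336g), lanosterol demethylase, by -1.38 (SE 0.17, adjusted p 1.75e-04). ERG4 (SAKL0H22000g), the last enzyme of the pathway, went from 2.06, 2.18, 1.64 and 1.71 to -0.78, -0.39, -0.35 and -0.71, a change of -2.46 (SE 0.19, adjusted p 6.67e-06). The gene not called was HES1 (SAKL0H06974g), an oxysterol-binding protein (-0.08, adjusted p 0.678). Under spike-in scaling 8 of the 11 were called lower.

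Among cell cycle regulators and histones 6 of 21 genes (28.6%, against 22.4% of all genes) were called lower and 0 higher by limma, with a median of -0.28 (5 lower without YPGly replicate 2 and 3 without YPD replicate 1). CLN3 (SAKL0D14124g), a G1 cyclin, fell from -0.14, -0.32, -0.37 and -0.26 to -1.57, -1.31, -1.64 and -1.88, a change of -1.33 (SE 0.16, adjusted p 1.44e-04). CLB5/CLB6 (SAKL0F06688g), an S phase cyclin, changed by -1.83 (SE 0.28, adjusted p 5.87e-04). POL30 (SAKL0B07128g), the sliding clamp of DNA replication, changed by -1.99 (SE 0.59, adjusted p 0.0206), with wide spread, and lost its call without YPD replicate 1 or 3 (-1.72 and -1.90).

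Stress genes moved both ways. In the list of heat shock and general stress 17 of 33 were called higher and 5 lower, with a median of 0.72 (16 and 5 without YPGly replicate 2). The lower count was 3 without any 1 of YPD replicates 1 to 3 and under spike-in scaling. The largest rises were in genes named for stationary phase, sporulation and the membrane. SPG4 (SAKL0E03696g), needed for survival in stationary phase, went from -6.09, -4.32, -5.76 and -4.87 to 2.81, 1.58, 3.08 and 2.99, a change of 7.88 (SE 0.43, adjusted p 7.84e-07). SPS100 (SAKL0E12298g), first known from the spore wall, rose by 6.77 (SE 0.23, adjusted p 3.15e-08), and HSP30 (SAKL0B06050g), a heat shock protein of the plasma membrane, by 6.48 (SE 0.19, adjusted p 1.5e-08). The largest fall was in DDR48 (SAKL0A03718g), a protein induced by DNA damage, from 4.00, 4.24, 3.26 and 4.20 to 1.19, 0.45, 1.42 and 1.70 (-2.74, SE 0.30, adjusted p 8.22e-05). SSB1 (SAKL0E13618g), a chaperone bound to ribosomes, changed by -1.40 (SE 0.20, adjusted p 4.11e-04). Storage carbohydrate genes gave 6 of 12 higher and 0 lower by limma (median 0.84), among them the trehalases ATH1 (SAKL0F13442g) (2.20, SE 0.16, adjusted p 6.22e-06, and 4.67 on its other probe) and NTH1 (SAKL0C11176g) (0.85, SE 0.22, adjusted p 0.00954) and the phosphatase subunit GAC1 (SAKL0A08184g) (1.93, SE 0.39, adjusted p 0.00292).

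Of 19 regulators of glucose repression and respiration 5 were called higher and 3 lower, with a median of 0.26. ADR1 (SAKL0H12958g), an activator of alcohol and fatty acid genes, went from -2.98, -3.11, -2.37 and -0.78 to 1.19, 0.54, 1.30 and 0.85, a change of 3.28 (SE 0.45, adjusted p 2.95e-04), with YPD replicate 4 again nearest to YPGly. XBP1 (SAKL0E07964g), a stress-induced repressor, rose by 4.85 (SE 0.37, adjusted p 7.49e-06). The glucose repressors MIG1 and MIG2 parted: MIG1 (SAKL0H20988g) rose from -1.0, -1.08, -0.82 and -0.44 to 1.03, 1.19, 0.57 and 0.76 (1.72, SE 0.20, adjusted p 1.12e-04) and MIG2 (SAKL0F01980g) fell from -1.12, -1.92, -1.12 and -1.82 to -2.64, -2.89, -2.20 and -2.88 (-1.16, SE 0.25, adjusted p 0.00387). TUP1 (SAKL0A00660g), their corepressor, changed by -0.62 (SE 0.14, adjusted p 0.00519) and was not called under median scaling (-0.57) or spike-in scaling (-0.32). CAT8 (SAKL0D01342g), the activator of gluconeogenic genes, was at 0.23 (adjusted p 0.429) and was 1.02 and called under quantile normalization.

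Iron genes, which Sef1 controls in some other yeasts, did not move 1 way. Of 27 genes of iron uptake and iron-sulfur assembly 9 were called higher and 5 lower, with a median of 0.17 (10 and 8 without YPGly replicate 2). ARN4 (SAKL0E00132g), a siderophore transporter, rose by 4.97 (SE 0.28, adjusted p 9.22e-07), with 2 of the 4 YPD arrays well above background. HMX1 (SAKL0F11242g), heme oxygenase, went from -2.44, -2.87, -3.33 and -1.74 to 0.27, -0.81, 0.76 and 0.50, a change of 2.77 (SE 0.40, adjusted p 3.60e-04), and ISA1 (SAKL0H25454g), of iron-sulfur assembly, rose by 1.99 (SE 0.28, adjusted p 3.69e-04). The low-affinity iron transporter FET4 (SAKL0B00308g) changed by -2.03 (SE 0.22, adjusted p 8.06e-05), on a probe that shares sequence with SAKL0H00132g by its name. The metal reductases FRE1 (SAKL0F10582g) and FRE5 (SAKL0F14740g) changed by -1.74 (SE 0.15, adjusted p 1.45e-05) and -1.89 (SE 0.33, adjusted p 0.00124), the latter by -4.86 on its other probe. Of the 88 tested genes that other arrays of the study found induced by low iron, 49 were called higher and 12 lower, with a median of 0.89 (52 and 14 without YPGly replicate 2). ACS1, SPS100 and GIT1, which act outside iron metabolism, were the largest rises among them.

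Genes near Sef1 binding peaks, as the study assigned them, were called in both directions. Of 657 tested, 178 were higher (27.1%, against 18.1% of all genes) and 174 lower (26.5%, against 22.4%), with a median of -0.02 (176 and 196 without YPGly replicate 2). For the 50 tested genes of the strongest peaks on glycerol the counts were 22 higher and 8 lower, with a median of 0.08 (19 and 8 without YPGly replicate 2), and ADY2, SFC1 and IDP2/IDP3 led the rises. The 4 arrayed neighbours of SEF1 gave 1 higher gene, PRX1 (SAKL0F12320g), a mitochondrial peroxiredoxin, which went from -0.88, -0.11, -0.27 and -0.78 to 2.59, 1.94, 2.78 and 2.59, a change of 2.98 (SE 0.24, adjusted p 1.07e-05). It also gave 1 lower gene, KIP1 (SAKL0F12298g), a mitotic motor (-0.92, SE 0.34, adjusted p 0.0484), whose call was lost without any 1 of 6 arrays, YPGly replicate 2 among them (-1.01 to -0.59).

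Several of the largest changes lay outside the lists of roles in metabolism and growth. The largest of all was in SAKL0A03696g, a gene without a symbol that was chosen after its values were seen. It went from -5.45, -5.97, -5.37 and -5.39 in YPD, well above background on 3 arrays, to 4.96, 4.54, 4.71 and 5.12 in YPGly, a change of 10.38 (SE 0.20, adjusted p 6.18e-10). SPL2 (SAKL0E12144g), a regulator of phosphate transport, went from -5.61, -3.05, -5.69 and -5.52 to 2.55, 2.02, 2.59 and 2.79, with YPD replicate 2 above its group, a change of 7.45 (SE 0.53, adjusted p 4.39e-06). GIT1 (SAKL0G07480g), which takes up glycerophosphoinositol and is also in the low-iron list, went from -5.39, -4.58, -6.67 and -5.76 to 0.37, 1.08, 0.58 and 1.16, a change of 6.39 (SE 0.39, adjusted p 1.66e-06). ENA2 (SAKL0H13222g), a sodium pump, rose by 7.27 (SE 0.29, adjusted p 8.50e-08). Among the falls, FSH1 (SAKL0G10780g), a serine hydrolase, went from 0.94, 1.63, 1.41 and 0.50 to -4.77, -3.43, -3.54 and -4.93, a change of -5.29 (SE 0.39, adjusted p 5.25e-06). BUD16 (SAKL0D11506g), pyridoxal kinase, changed by -3.13 (SE 0.37, adjusted p 1.12e-04), and TPO4 (SAKL0H05412g), a polyamine transporter, by -3.11 (SE 0.21, adjusted p 3.54e-06).

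Whether the response depended on Sef1 was asked by the difference of the 2 responses, sef1Δ minus WT, over all 16 arrays. It was called for 28 of 4255 genes (0.658%) by limma, 17 more positive and 11 more negative in sef1Δ, and 407 genes had an unadjusted p under 0.05. WT itself had 746 genes higher (17.5%) and 1037 lower (24.4%) in YPGly. A call was shared by the strains with 1 direction for 1302 genes and with opposite directions for 4, and 417 genes were called in sef1Δ alone, for which a lack of change in WT was not shown. By the sign of the estimates alone, both strains rose in 16 of the 28 (10 of them more in sef1Δ) and both fell in 5 (3 of them more in sef1Δ). The signs were opposite in 7, and for 3 of these the change was called in both strains. The count of called differences was 54 without WT replicate 4 in YPGly and 57 with the replicate number as a block. All 15 of the differences described in the following paragraphs were also called with the block. By list, the difference was called for 10 of 657 genes near Sef1 peaks, 6 of 88 low-iron genes and 3 of 10 disaccharide genes. Among the 50 tested genes of the strongest peaks it was called for 1, SAKL0B05940g, a gene without a symbol. SAKL0B05940g changed by -1.05 in sef1Δ, where its groups overlapped (-0.76 with no call under spike-in scaling), and by 0.75 in WT. Its difference was -1.80 (SE 0.35, adjusted p 0.0207). The test called 2 of 10 gluconeogenesis and glyoxylate genes, 2 of 29 glycolysis and fermentation genes and 0 of 21 TCA cycle genes. With 0.658% called over all genes, a count of 0 does not set the last list apart. The test concerns the response and not the level. In sef1Δ the mean level of IDH1 (SAKL0E07876g) was 0.44 in YPD and -0.17 in YPGly, against 2.21 and 2.48 in WT. The study reported some TCA cycle genes as lower in sef1Δ than in WT.

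The 3 largest differences were in MAL11, IMA1 (SAKL0A05654g) and IMA5 (SAKL0C00176g) of the disaccharide list, which rose in both strains and less in sef1Δ. MAL11 (SAKL0A05676g) was read at -6.74, -5.72, -6.26 and -6.20 in WT in YPD and at 2.38, 1.76, 3.15 and 3.47 in WT in YPGly, a WT change of 8.92, and its response was lower in sef1Δ by 5.98 on the log2 scale (a difference of -5.98, SE 0.94, adjusted p 0.00405). In YPGly all 4 mutant arrays lay below all 4 WT arrays. In YPD its probe was well above background on 1 of the 4 WT arrays, so the sizes of the WT change and of the difference rest on signals mostly near background. IMA1 (SAKL0A05654g) changed by 5.80 in WT, and its response differed by -4.07 (SE 0.31, adjusted p 2.21e-06). The difference was -2.97 (SE 0.59, adjusted p 0.0236) for IMA5 (SAKL0C00176g), and this call was lost without any 1 of 4 arrays (-3.0 to -2.67). For the 10 genes of the list the median change was 1.72 in sef1Δ and 3.97 in WT, and 3 of the 10 had a called difference. The other isomaltase genes did not pass the test of the difference (IMA1 (SAKL0A05698g) at -1.29, IMA1 (SAKL0C02112g) at -2.36 and IMA5 (SAKL0A00154g) at -2.70, adjusted p 0.285, 0.228 and 0.171), and SUC2 was lower in YPGly in both strains.

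The 2 ADH3 genes were more negative in sef1Δ. ADH3 (SAKL0E02838g) was at -1.22, -1.42, -0.62 and -0.79 in WT in YPGly, above the 4 mutant arrays, and the difference was -2.32 (SE 0.33, adjusted p 0.00329). The direction in WT turned with the probe: it fell by 3.78 on this probe, while the other went from 3.18, 3.12, 2.88 and 3.43 in YPD to 3.32, 3.22, 3.93 and 3.91 in YPGly, with groups that overlapped. The difference between strains was called on that probe too (-2.77). ADH3 (SAKL0B08184g) rose in WT, from 4.18, 4.23, 4.05 and 4.50 to 5.33, 5.15, 5.72 and 5.92 (1.29). In sef1Δ its groups overlapped, with a change of -0.71 on this probe and -0.12 on the other. The difference between strains was -2.0 (SE 0.33, adjusted p 0.00517) on the main probe. SAKL0F16324g, SAKL0H07018g and YDR248C (SAKL0H11726g) rose in both strains and less in sef1Δ, with differences of -2.57, -2.19 and -1.20 (adjusted p 0.00329, 0.00329 and 0.0488). The last call was lost without any 1 of 14 arrays (-1.28 to -1.07).

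Of the 10 gluconeogenesis and glyoxylate genes, PYC1 and PCK1 had a called difference, and both were more positive in sef1Δ. The other members were not called, among them MLS1 (2.37), IDP2/IDP3 (1.00), VID24 (0.04), CIT1/CIT2 (-0.18) and MDH2 (-0.51). The median change over the 10 genes was 4.27 in sef1Δ and 2.81 in WT. PYC1 (SAKL0A07128g) fell in WT, from 2.70, 2.42, 2.42 and 2.49 to 1.37, 1.71, 0.97 and 1.67 (-1.08), and rose in sef1Δ, a difference of 2.5 (SE 0.26, adjusted p 8.08e-05). PCK1 (SAKL0E15048g) changed by 6.10 in WT, a difference of 2.70 (SE 0.51, adjusted p 0.0186), which was not called on its other probe (2.22) or on the mean of both (2.46). SAKL0C10010g rose by 2.73 in sef1Δ and 0.71 in WT (difference 2.02, adjusted p 0.00343). PSF3 (SAKL0C13794g), a subunit of the GINS complex of DNA replication, and YKR045C (SAKL0C07084g) differed by 1.5 and 1.61 (adjusted p 0.00343 and 0.00343). These 3 differences were not called under spike-in scaling (1.65, 1.13 and 1.23), nor that of PSF3 on its other probe (0.76). RCR2 (SAKL0C10890g), a vacuolar protein, differed by 1.74 (adjusted p 0.0427), a call lost without any 1 of 12 arrays (1.58 to 1.83). SAKL0H11770g fell in both strains, by 3.83 in sef1Δ and 5.45 in WT, a difference of 1.63 (adjusted p 0.0195) that was 1.25 with no call under spike-in scaling.

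**Figure D4:**
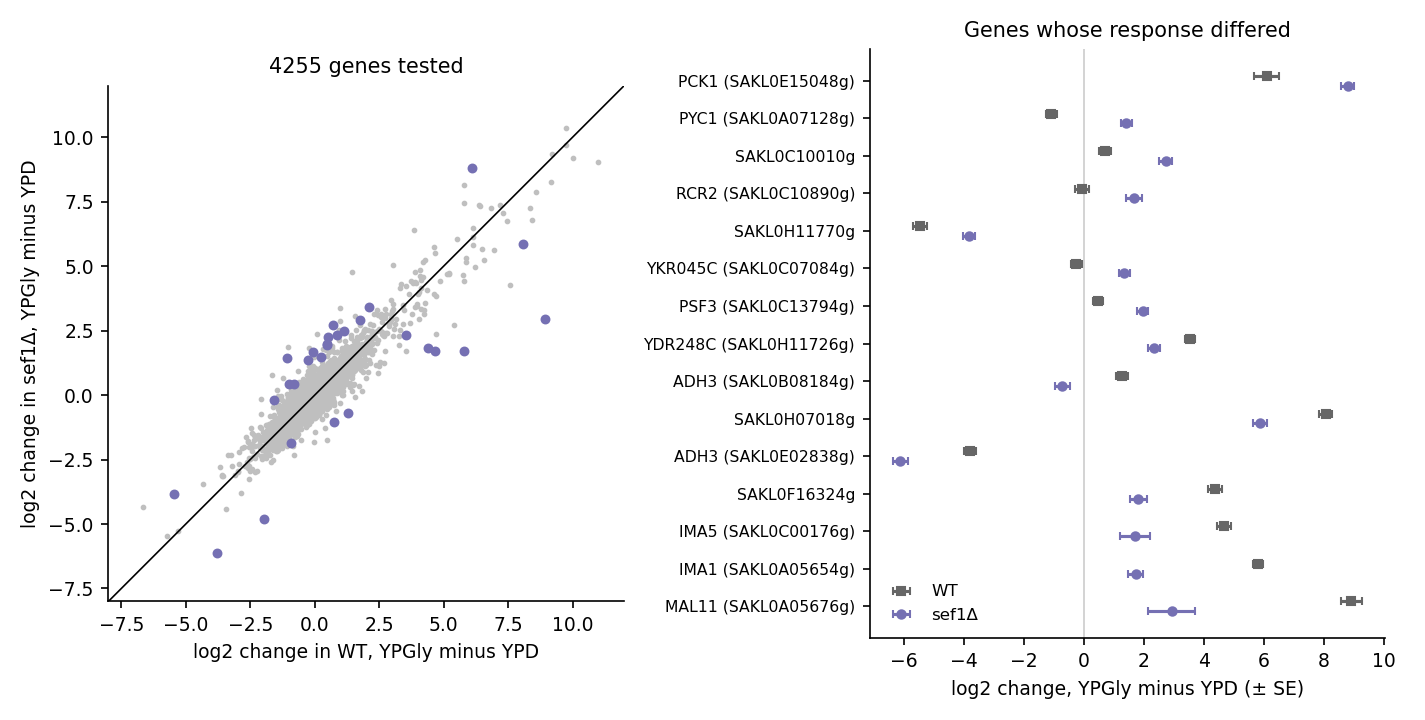
Left, log2 change in sef1Δ (YPGly minus YPD) against that in WT for 4255 genes, with the line of equal change and the 28 genes whose response differed in purple. Right, the changes with SE in WT (grey squares) and sef1Δ (purple circles) for 15 of them named in the text; MAL11, IMA1 and IMA5 rose less in sef1Δ, and PYC1 and PCK1 lie higher in sef1Δ than in WT.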

How the data were processed

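RNA of each culture was labelled with 1 dye and hybridised to an Agilent custom array with probes for Lachancea kluyveri genes. The deposited values are spot intensities that the authors obtained with Agilent Feature Extraction 10.5.1.1, background-subtracted by that software, and deposited scanner flags mark spots well above background, saturated or uneven. The deposited log2 value table, which the authors scaled to the 75th percentile, served only as an alternative. Here the processed intensity was divided by the 75th percentile of the gene probes of its array and taken to log2. Over the 16 arrays this percentile ranged from 718 to 2410, the share of probes well above background from 90.5% to 98.7%, and no probe was saturated. Of 10620 probes, 5304 genes had 2 and 12 had 1, and the brighter stood for the gene, except for SAKL0E02838g, where probe 2 was used as in the notes of the study. The 62 probes that share a sequence with another (31 among the genes tested) cannot tell their genes apart. The 32 spots marked as uneven were left out (23 on mutant arrays, touching 11 tested genes). Genes were tested where the signal reached 200 on every array of at least 1 group.

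The media were compared in sef1Δ with limma 3.58.1 (R 4.3.3) on the 8 mutant arrays, and the responses of the strains on all 16, with Benjamini-Hochberg adjusted p over all genes tested. Replicate numbers are shared by the groups. Deviations of same-numbered arrays of the 2 strains correlated across genes at 0.366 to 0.713 in YPD and 0.208 to 0.701 in YPGly, so the count of differing responses is also given with the number as a block. The study used an unpaired t-test, with Benjamini-Hochberg correction for its iron-related comparisons. It left correction out where genes sensitive to Sef1 were set against genes bound by it. Other work used Python 3.11.15, pandas 2.3.3, scipy 1.17.1 and matplotlib 3.10.9, and the fit was tested on simulated data. Where a probe was well above background on no array of a group, the fold is a lower bound against the dimmest such signal of each array. The arrays are labelled biological repeats, and how separate their cultures were is not given in the sources used here. Symbols come from a baker's yeast ortholog table of the study held in part, with 2585 genes, 2208 of them tested. The 24 lists were matched through these symbols or taken from the study. The study drew its Sef1 peak and low-iron genes from other samples. The groups and lists were chosen with earlier results of these data known. Named genes were the 12 largest rises and falls among called genes measured on all 8 arrays with groups that did not overlap, up to 5 per direction measured in 1 medium only, members of lists of 25 or fewer, the 3 largest rises and falls and the minority direction of longer lists, genes whose response differed between strains (the 8 largest in each direction), the 5 with the highest level in each medium, SEF1 and SAKL0E02838g, of which part is printed. ICL2 and SAKL0A03696g were chosen after their values were seen. Alternatives changed the scaling, background correction, normalization, probe rule, filter, fold limit, test, array weights, slide or replicate block and the arrays included.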

Additional observations from a re-analysis of the deposited data

Results flagged for a closer look

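For 141 named genes the 4 arrays of sef1Δ in each medium were compared, 282 groups in all, and in 35 groups 1 array lay so far from the others that its gap to the nearest passed Dixon's 95% critical value for 4 samples. Chance alone does so in about 1 in 20 groups of independent normal values. Genes here share the same arrays, and some were chosen for groups that did not overlap, so this rate is no measure for the count of 35. YPGly replicate 2 was that array in 17 groups and YPD replicate 4 in 9. Values are log2 signals relative to the 75th percentile, each beside the range of the other 3 arrays. YPGly replicate 2 lay below the others for PET9 (SAKL0B06754g, 4.71 against 5.66 to 5.77), NTH1 (SAKL0C11176g, 0.69 against 1.46 to 1.59), MDH2 (SAKL0C12760g, 2.28 against 2.89 to 2.99), CIT1/CIT2 (SAKL0D09152g, 2.98 against 3.49 to 3.57), ALD4 (SAKL0D14806g, 3.46 against 5.03 to 5.08), MDH3 (SAKL0E04928g, 2.24 against 3.12 to 3.19), IDH1 (SAKL0E07876g, -1.59 against 0.20 to 0.40), TDH3 (SAKL0H24926g, 1.81 against 2.94 to 3.12) and QCR6 (SAKL0H25982g, 0.076 against 1.65 to 1.94). YPGly replicate 2 lay above the others for RGT1 (SAKL0A09856g, 0.11 against -0.46 to -0.40), VID24 (SAKL0B07634g, 2.53 against 1.24 to 1.45), PSF3 (SAKL0C13794g, 1.25 against 0.58 to 0.69), SUC2 (SAKL0D11946g, 5.69 against 4.00 to 4.04), SSB1 (SAKL0E13618g, 4.46 against 3.97 to 4.00), ASN1/ASN2 (SAKL0F02970g, 1.81 against 0.89 to 0.95), FRE5 (SAKL0F14740g, -2.17 against -3.80 to -3.54) and LYS21 (SAKL0H09746g, 2.32 against 0.97 to 1.18). YPD replicate 4 lay below the others for YMC2 (SAKL0A00132g, -2.76 against -1.73 to -1.53) and RPL7A (SAKL0A04686g, 3.83 against 4.49 to 4.62). YPD replicate 4 lay above the others for IMA1 (SAKL0A05654g, -1.28 against -2.05 to -1.94), IMA1 (SAKL0C02112g, -0.67 against -3.66 to -3.21), NTH1 (SAKL0C11176g, 0.66 against 0.40 to 0.44), SPS19 (SAKL0D11484g, 2.29 against 1.47 to 1.58), ACS1 (SAKL0D14608g, -1.59 against -3.59 to -3.46), PCK1 (SAKL0E15048g, -3.22 against -4.15 to -4.08) and ADH5 (SAKL0H00374g, -1.66 against -2.76 to -2.61). YPGly replicate 3 lay below the others for IMA5 (SAKL0A00154g, -0.33 against 0.95 to 1.18), IMA5 (SAKL0C00176g, -1.79 against -0.70 to -0.48) and ADY2 (SAKL0D09328g, 3.99 against 4.68 to 4.82). YPGly replicate 3 lay above the others for PDA1 (SAKL0H17468g, 3.46 against 2.87 to 2.94). YPD replicate 1 lay below the others for INH1/STF1 (SAKL0F09988g, 0.59 against 1.04 to 1.12). YPD replicate 1 lay above the others for FRE5 (SAKL0F14740g, -1.12 against -1.53 to -1.47). YPD replicate 2 lay below the others for SAKL0A03696g (-5.97 against -5.45 to -5.37). YPD replicate 2 lay above the others for SPL2 (SAKL0E12144g, -3.05 against -5.69 to -5.52). YPD replicate 3 lay below the others for ADH3 (SAKL0E02838g, 1.71 against 2.49 to 2.60).

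The response to glycerol differed between strains, by the limma test of the difference itself, for 15 of these 141 genes. The difference, sef1Δ minus WT on the log2 scale, was negative for 8: -5.98 for MAL11 (SAKL0A05676g), -4.07 for IMA1 (SAKL0A05654g), -2.97 for IMA5 (SAKL0C00176g), -2.57 for SAKL0F16324g, -2.32 for ADH3 (SAKL0E02838g), -2.19 for SAKL0H07018g, -2.0 for ADH3 (SAKL0B08184g) and -1.20 for YDR248C (SAKL0H11726g). It was positive for 7: 2.70 for PCK1 (SAKL0E15048g), 2.5 for PYC1 (SAKL0A07128g), 2.02 for SAKL0C10010g, 1.74 for RCR2 (SAKL0C10890g), 1.63 for SAKL0H11770g, 1.61 for YKR045C (SAKL0C07084g) and 1.5 for PSF3 (SAKL0C13794g). Adjusted p-values are given with the comparison of strains and lie between 2.21e-06 and 0.0488.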

How the results depend on the processing

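With a 2-fold in place of a 1.5-fold limit, 467 genes were called higher and 532 lower, and scaling on the spike-in controls gave 1001 higher and 467 lower. The number of genes whose response differed between strains (28) was the least stable count. It was 11 on the spike-in scale (2 positive and 9 negative), 14 with the dimmer probe of each gene, 57 with the replicate number as a block and 169 with array weights. Leaving out 1 array at a time gave 650 to 834 genes higher, 789 to 1014 lower and 20 to 54 differing between strains (54 without WT_YPGly replicate 4). Of the 1723 calls, 1315 were kept in all 8 such fits and 408 were lost in at least 1. In the alternatives not named above (among them normexp background, quantile or median scaling, the deposited log2 values, other signal filters and slide as a block) these counts stayed within 1.5 times the values reported. The methods' t-test called 752 higher and 935 lower at its own threshold, and 657 and 791 after Benjamini-Hochberg adjustment. For 141 of the named genes, 3985 of 4074 recomputed changes kept their direction and side of the threshold, 71 lost the call and 4 gained it. Another 14 values, within 1 slide, moved by more than the spread between replicates, and no called change turned its direction. Many of these genes were chosen for large changes, so such stability is in part built in. Of 1296 recomputed counts of called list members, 76 were marked as moved and 1220 as the same. For the differences between strains, 403 of 450 held and 47 were lost.

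The replicate numbers are shared by all groups, but nothing in the labels ties equal numbers to one day or culture. In sef1Δ the deviations of same-numbered arrays correlated across genes at 0.0894 to 0.400, and 6 of 8 arrays correlated best with their own number. With the replicate number as a block, 808 genes were called higher and 1047 lower in sef1Δ. The scale sets the level of no change, and for probes near background a fold is bounded only by the dimmest measurable signal. Arrays number 4 a group, which limits the precision.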

Other observations

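In copper uptake, the high-affinity copper transporters CTR1 (SAKL0F03784g) and CTR3 (SAKL0G16038g) were both called lower in YPGly in sef1Δ. CTR1 went from 0.39, 0.09, 0.28 and -0.02 in YPD to -0.99, -1.51, -0.79 and -0.74 in YPGly, a change of -1.19 (SE 0.20, adjusted p 9.93e-04) by limma. CTR3 went from 0.17, 0.38, -0.27 and 0.77 to -1.24, -2.15, -0.74 and -0.55, a change of -1.43 (SE 0.35, adjusted p 0.00782). SNZ1 (SAKL0E03168g), of vitamin B6 synthesis, changed by -1.48 (SE 0.29, adjusted p 0.0025), alongside the pyridoxal kinase gene BUD16 (SAKL0D11506g), at -3.13.

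The galactose genes GAL1/GAL3 (SAKL0C11572g), GAL7 (SAKL0C11528g) and GAL10 (SAKL0C11550g), which turn galactose into sugar phosphates, were at -0.53, -0.48 and 0.48 (adjusted p 0.37, 0.506 and 0.472) and were not called. In storage carbohydrate use, the debranching enzyme gene GDB1 (SAKL0F16126g) rose by 1.15 (SE 0.29, adjusted p 0.00957), from 0.60, 1.09, 0.23 and 1.52 to 2.36, 1.51, 1.99 and 2.17.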
